A study of Mus musculus with 8 samples.

Results

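The levels of 10 genes were followed in mouse dorsal root ganglia after a carrageenan injection into the hind paw: Tifa, Traf2, Traf6, Myd88, Tlr4, Irak4, Nfkb1, Rela, Nfkbia and Tnfaip3. They were chosen by name as members of the pathway that runs from TIFA, Toll-like receptors and TRAF proteins to NF-kB. This choice was made with earlier results of these data known. They are 10 of the 24421 genes in the count table. All 10 passed the filter on low counts, which left 17328 genes to test. RNA came from L3 to L5 ganglia of C57BL/6J mice, in 8 libraries that are all labelled WT. The labels give an age of 8 weeks for every group, while the study's methods describe male mice over a range that starts at 8 weeks. The 0d group was taken from naive mice that had received no injection, and the 1d, 3d and 30d groups were taken 1, 3 and 30 days after 20 µL of 1% carrageenan, a seaweed polysaccharide that inflames tissue, had been injected into the left hind paw. Each group had 2 libraries, each made from the pooled RNA of 2 to 3 mice, so the spread measured here is that between pools. No group was injected with vehicle, so injection and carrageenan cannot be told apart. No uninjected group was taken at the later times, so a difference in age between groups could not be told apart from time since injection. The samples are labelled as DRG neurons, but whole ganglia were dissected.

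TIFA is an adaptor protein that binds to TRAF6 and makes it form oligomers, and it is known for relaying the detection of bacterial sugars by the kinase ALPK1. TLR4 detects bacterial lipopolysaccharide at the cell surface and signals through MYD88 and IRAK4, and this branch also reaches TRAF6, a ubiquitin ligase that activates the TAK1 and IKK kinases. IKK then marks IkB alpha, the product of Nfkbia, for destruction, which frees dimers such as that of p50, made from Nfkb1, and RELA to enter the nucleus. Nfkbia and Tnfaip3 are textbook targets of these dimers and restrain them in turn, and much of the pathway is controlled at the protein level, which RNA counts do not show.

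RefSeq promoter windows (build GRCm38.p6, 250 bases before to 50 bases after a gene start) were found for 8 of the 10 genes, in 10 windows, and none were found for Tlr4 and Nfkb1. Matches to the NF-kB site on either strand were present in 3 of the 10 windows, against 8.46% of all 32851 windows, and matches to the interferon-stimulated response element (GAAA, 2 bases of any kind and GAAA again, either strand) in 1 of them, that of Myd88, against 3.44%. The windows with an NF-kB match are shown because they belong to Tifa, whose RNA level changed, and to Nfkbia and Tnfaip3, the inhibitors whose levels did not pass the test. The first window of Tifa is shown with them, since the gene has a pair of annotated starts. Letters in capitals mark the matches, which may lie on either strand, and each window is written in the direction of transcription.
Tifa, first start, chr3:127789622-127789921, plus strand: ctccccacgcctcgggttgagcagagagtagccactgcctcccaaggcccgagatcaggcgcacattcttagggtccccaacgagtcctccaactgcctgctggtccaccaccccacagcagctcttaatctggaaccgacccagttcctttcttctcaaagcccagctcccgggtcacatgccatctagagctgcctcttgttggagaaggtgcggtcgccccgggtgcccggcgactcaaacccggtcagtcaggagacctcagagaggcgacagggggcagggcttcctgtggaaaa
Tifa, second start, chr3:127790407-127790706, plus strand: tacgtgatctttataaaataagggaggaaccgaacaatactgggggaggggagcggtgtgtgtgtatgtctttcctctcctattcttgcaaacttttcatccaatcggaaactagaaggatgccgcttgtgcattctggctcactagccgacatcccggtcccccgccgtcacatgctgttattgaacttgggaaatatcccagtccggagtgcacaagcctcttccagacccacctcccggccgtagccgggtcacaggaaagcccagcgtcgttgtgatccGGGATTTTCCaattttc
Nfkbia, chr12:55492598-55492897, minus strand: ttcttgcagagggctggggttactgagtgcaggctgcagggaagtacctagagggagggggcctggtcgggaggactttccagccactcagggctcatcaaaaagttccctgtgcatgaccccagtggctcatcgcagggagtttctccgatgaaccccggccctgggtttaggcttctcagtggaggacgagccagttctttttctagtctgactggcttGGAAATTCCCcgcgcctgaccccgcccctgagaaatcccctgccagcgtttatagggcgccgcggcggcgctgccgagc
Tnfaip3, upstream start, chr10:19015361-19015660, minus strand: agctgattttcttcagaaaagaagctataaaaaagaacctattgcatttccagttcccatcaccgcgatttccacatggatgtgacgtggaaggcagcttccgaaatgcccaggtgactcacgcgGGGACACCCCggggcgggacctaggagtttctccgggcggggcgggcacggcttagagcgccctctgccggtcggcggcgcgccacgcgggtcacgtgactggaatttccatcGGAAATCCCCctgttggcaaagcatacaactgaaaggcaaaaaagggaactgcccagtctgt
The match in Tifa began 33 bases after the second start. That in Nfkbia began 29 bases before the start, and those in Tnfaip3 began 125 and 12 bases before it. The other Tnfaip3 window and the first Tifa window held no match to either motif. A match describes these letters only, and binding was not measured.

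Tifa was higher at 1d than at 0d and lower again at 30d, and it was the only one of the 10 genes that passed the test in any comparison. The gene lies on chromosome 3 (mm10, 127789913 to 127798389, plus strand), and its counts ranged from 972 to 1790 per library. In CPM (counts scaled to library size by TMM), Tifa measured 18.37 and 18.41 in the 0d libraries, 24.2 and 26.9 in those of 1d, 23.8 and 24.5 in those of 3d, and 18.39 and 16.7 in those of 30d. Both libraries of 1d and of 3d therefore lay above all 4 libraries of 0d and 30d, and the libraries of 0d and 30d overlapped.

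By edgeR's quasi-likelihood test with Benjamini-Hochberg adjustment over all 17328 genes, Tifa rose 1.39-fold from 0d to 1d (log2 0.47 ± 0.09 SE, 95% interval 0.28 to 0.67, adjusted p = 0.0367). At 3d the fold was 1.31 (log2 0.39 ± 0.09, interval 0.20 to 0.58), which did not pass the threshold of 0.05 (adjusted p = 0.129). Between 1d and 3d the difference was log2 -0.08 (interval -0.27 to 0.11, adjusted p = 1). Tifa was lower at 30d than at 3d by log2 -0.46 ± 0.09 (adjusted p = 0.026) and lower than at 1d by log2 -0.54 ± 0.09 (adjusted p = 0.0114). The 30d and 0d groups differed by log2 -0.07 with an interval of -0.26 to 0.13 (adjusted p = 0.801). In a single test of any difference among the 4 time points, Tifa had an adjusted p of 0.00835, a call that was lost without 3d replicate 1 or 3d replicate 2.

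Calls near the threshold need care, since on simulated counts unchanged genes made up more of the calls than 0.05 allows. The size of the Tifa difference between 1d and 0d moved less than its call did. Over the 15 alternative settings the log2 fold change stayed between 0.47 and 0.50, while the adjusted p ranged from 0.00243 to 0.0828 and passed the threshold in 9 of them. It missed the threshold without robust estimation (0.0619), with edgeR's newer dispersion method (0.0512), with limma-voom (0.0501), with the 1d and 0d libraries alone (0.0703) and with trends on GC content or gene length removed without centring (0.0828 and 0.0763). It was also lost without any 1 of the 6 libraries of 0d, 1d and 3d, with log2 values between 0.40 and 0.55 and adjusted p between 0.109 and 0.462, and kept without 30d replicate 1 (0.00944) or 30d replicate 2 (0.00984). The 3d difference, by contrast, passed with no filter on low counts (0.0431), with DESeq2 (0.032), with the 3d and 0d libraries alone (0.0364) and without 30d replicate 1 (0.0392) or 30d replicate 2 (0.0398). The fall from 1d to 30d passed in all 15 settings, with adjusted p up to 0.0487, and was lost only without 1d replicate 2 (log2 -0.46, adjusted p = 0.189). The fall from 3d to 30d passed in 14 of the 15 settings, and was lost without 3d replicate 1, 3d replicate 2 or 30d replicate 2. With 1 library left out, its log2 value ran from -0.53 to -0.39. Calls over all genes in this comparison also fell without either 3d library.

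**Figure D1:**
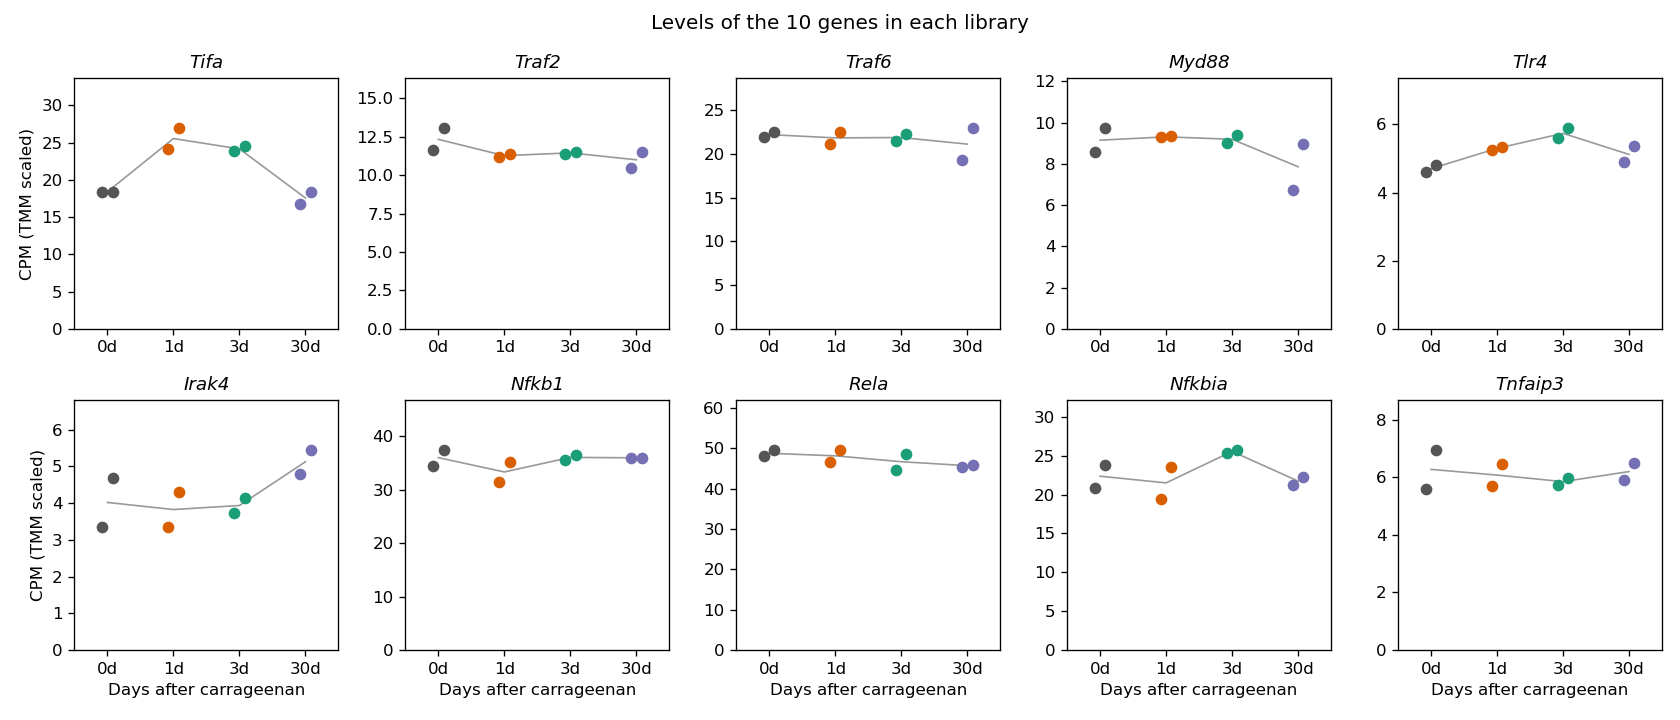
CPM (TMM scaled, axes from 0) of the 10 genes in the 8 libraries at 0d, 1d, 3d and 30d after carrageenan. Each point is 1 library, with the lower one on the left, and the grey line joins group means. For Tifa the 1d and 3d points, between 23.8 and 26.9, lie above all 0d and 30d points, while the other panels show smaller shifts or overlapping groups.

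The receptor and its adaptors came next in the pathway. Tlr4 (chromosome 4, 66827811 to 66842796, plus strand), the lipopolysaccharide receptor, measured 4.59 and 4.81 CPM in the 0d libraries, 5.35 and 5.24 in those of 1d, 5.60 and 5.88 in those of 3d, and 5.36 and 4.88 in those of 30d. Both 0d libraries lay below all 6 later libraries, yet no Tlr4 comparison passed the test. Its log2 fold change at 3d was 0.29 ± 0.16 SE, with a 95% interval of -0.05 to 0.63 (adjusted p = 0.916), from 230 to 430 counts per library. At 1d the interval of Tlr4 ran from -0.18 to 0.52 and so held the value measured for Tifa.

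Myd88 (chromosome 9, 119335988 to 119340040, minus strand), the adaptor of most Toll-like receptors and of the interleukin-1 receptor, had 8.58 and 9.72 CPM in the 0d libraries, 9.34 and 9.28 in those of 1d, 9.38 and 9.001 in those of 3d, and 8.98 and 6.74 in those of 30d. The low value at 30d was that of replicate 2, and the other 30d library was within the range of the 0d libraries. The log2 difference from 0d was 0.02 at 1d, 0.01 at 3d and -0.22 at 30d, with an interval at 30d of -0.54 to 0.10 and an adjusted p of 0.57. Irak4 (chromosome 15, 94543660 to 94568316, plus strand), the kinase that MYD88 recruits, had 155 to 382 counts per library, the fewest of the 10 genes in every library except 30d replicate 2. Its CPM was 3.35 and 4.70 in the 0d libraries, 3.34 and 4.31 in those of 1d, 4.14 and 3.73 in those of 3d, and 4.80 and 5.46 in those of 30d. Both 30d libraries of Irak4 were above all 6 others, and the log2 difference from 0d was 0.35 ± 0.21 SE (interval -0.10 to 0.80, adjusted p = 0.525).

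Traf6 and Traf2, the ubiquitin ligases below the adaptors, stayed close to their 0d levels in these libraries. Traf6 (chromosome 2, 101678420 to 101701668, plus strand), the partner of TIFA, had 22.5 and 21.9 CPM in the 0d libraries, 22.5 and 21.2 in those of 1d, 21.4 and 22.3 in those of 3d, and 22.9 and 19.3 in those of 30d. The groups of Traf6 overlapped in every comparison with 0d, and the log2 differences from 0d were -0.02 at 1d (interval -0.23 to 0.18), -0.02 at 3d (-0.22 to 0.18) and -0.07 at 30d (-0.28 to 0.13). Tifa and Traf6 thus had intervals at 1d that did not overlap, although the difference between these genes was not itself tested. Traf2 (chromosome 2, 25517982 to 25546940, minus strand), which signals below TNF receptors, had 11.6 and 13.04 CPM in the 0d libraries, 11.3 and 11.2 in those of 1d, 11.5 and 11.4 in those of 3d, and 10.5 and 11.5 in those of 30d. Each later library of Traf2 was below both 0d libraries, by log2 -0.13, -0.11 and -0.16 at 1d, 3d and 30d, and the adjusted p was 0.591 or more.

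Nfkb1 and Rela, which encode the p50 precursor and the RELA subunit, had the highest counts and the narrowest intervals. Nfkb1 (chromosome 3, 135584655 to 135691547, minus strand) had 37.5 and 34.5 CPM in the 0d libraries, 35.2 and 31.4 in those of 1d, 36.6 and 35.5 in those of 3d, and 35.96 and 35.93 in those of 30d. Its log2 difference from 0d was -0.11 at 1d (interval -0.27 to 0.05), 0.0022 at 3d (-0.16 to 0.16) and -0.0011 at 30d (-0.16 to 0.16). Rela (chromosome 19, 5637490 to 5648130, plus strand) had 49.6 and 48.0 CPM in the 0d libraries, 49.7 and 46.7 in those of 1d, 44.8 and 48.7 in those of 3d, and 46.0 and 45.5 in those of 30d. Only the 30d libraries of Rela lay apart from the 0d ones, at log2 -0.09 (interval -0.23 to 0.04, adjusted p = 0.583).

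The inhibitors that NF-kB induces did not pass the test either. Nfkbia (chromosome 12, 55489409 to 55492647, minus strand), which encodes IkB alpha and has a promoter match shown above, had 23.8 and 20.9 CPM in the 0d libraries, 19.5 and 23.5 in those of 1d, 25.8 and 25.3 in those of 3d, and 22.3 and 21.2 in those of 30d. Both 3d libraries of Nfkbia were above the 6 others. Its difference at 3d was log2 0.19 from 0d (interval -0.02 to 0.41, adjusted p = 0.876) and 0.25 from 1d (adjusted p = 0.993), and 30d lay below 3d by log2 -0.23 (adjusted p = 0.335). Tnfaip3 (chromosome 10, 19000910 to 19015410, minus strand), which encodes the ubiquitin-editing enzyme A20, had 6.96 and 5.59 CPM in the 0d libraries, 6.45 and 5.70 in those of 1d, 5.72 and 5.98 in those of 3d, and 5.91 and 6.48 in those of 30d. The later libraries of Tnfaip3 all lay between the 0d ones, and its log2 difference at 1d was -0.04 with an interval of -0.40 to 0.31.

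**Figure D2:**
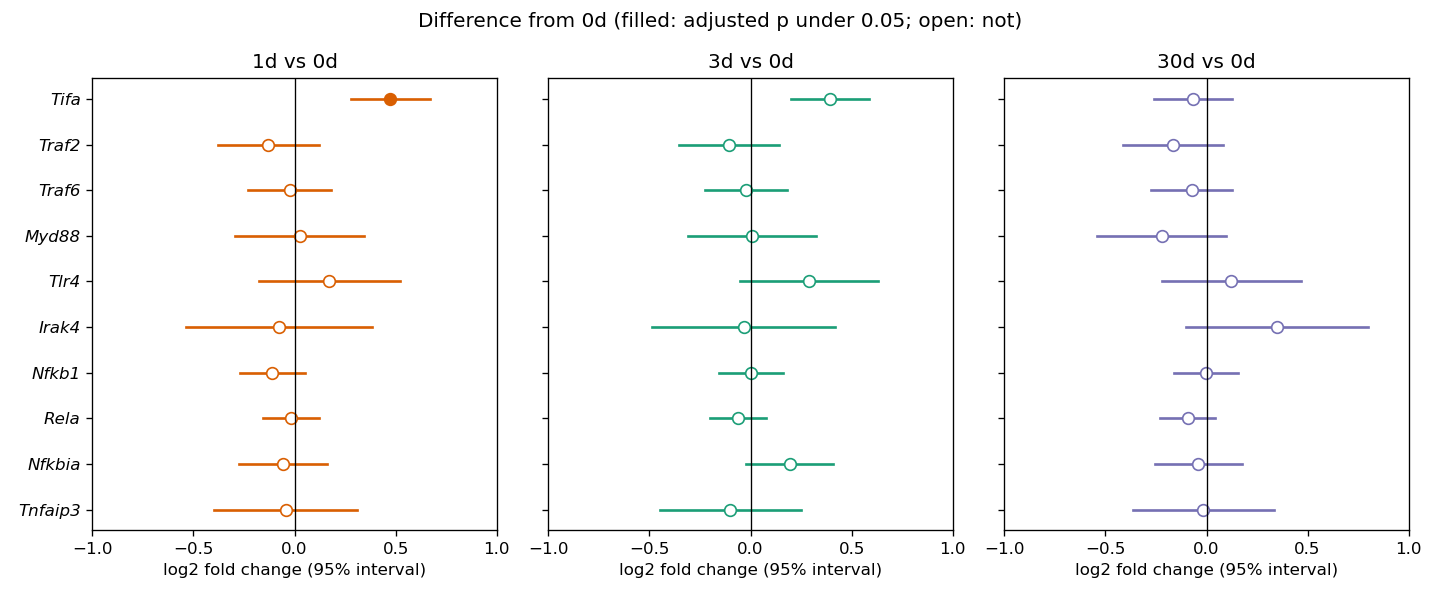
log2 fold change of each gene at 1d, 3d and 30d against 0d (horizontal axis), with its 95% interval from edgeR's quasi-likelihood fit. Filled points passed an adjusted p of 0.05 and open points did not. The single filled point is Tifa at 1d, at 0.47, and the Tifa interval at 3d also lies above 0.

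Counted over the 10 genes, 1 passed the test at 1d against 0d, where 0.346% of all tested genes did, and 0 of 10 passed at 3d, where 0.219% did. DESeq2 passed 1 of the 10 at 3d (0.758% of the genes it tested) and limma-voom 0 (0.237%), and 1 had an unadjusted p under 0.05 (5.94%). At 30d against 0d, 0 of 10 passed by edgeR, DESeq2 or limma-voom, and 0 had an unadjusted p under 0.05, beside 0.0231%, 1.24% and 0.0462% of all genes that passed by each tool and 12.3% with such a p. Between the later time points, 0 of 10 passed for 3d against 1d (0.289% of all genes; 1 gene at an unadjusted p under 0.05, against 4.24%, and 0 by DESeq2 or limma-voom, against 0.623% and 0.352%), 1 for 30d against 3d (0.935%) and 1 for 30d against 1d (0.571%). For any difference among the time points 1 of 10 passed (1.02%). Every one of these calls was Tifa, and with so few genes called anywhere, these counts are not a property of the 10 genes as a group. The genes were also chosen with earlier results of these data known. The median size of the log2 difference over the 10 genes at 1d was 0.07, against 0.08 over all tested genes, and the libraries of the 2 groups lay apart for 3 of the 10, against 31.9% of all genes.

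Levels were compared between genes per length, as RPKM (CPM per kilobase of exon). At 0d the order of mean RPKM was Rela (18.0), Nfkbia (14.2), Nfkb1 (8.74), Tifa (8.60), Myd88 (4.80), Traf2 (4.02), Traf6 (3.59), Irak4 (1.42), Tnfaip3 (1.37) and Tlr4 (1.22). The libraries of Nfkb1 and Tifa overlapped at 0d, as did those of Irak4 and Tnfaip3 and those of Tnfaip3 and Tlr4, so these neighbours did not differ beyond their spread. Tifa moved from rank 4 at 0d to rank 3 at 1d (11.9 RPKM) and 3d (11.3 RPKM), above Nfkb1, and was back at rank 4 at 30d (8.22 RPKM). At 1d its libraries overlapped those of Nfkbia. In naive ganglia the RNA of the adaptor Tifa was thus at a higher level per length than that of its partner Traf6, by 8.60 against 3.59 RPKM.

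**Figure D3:**
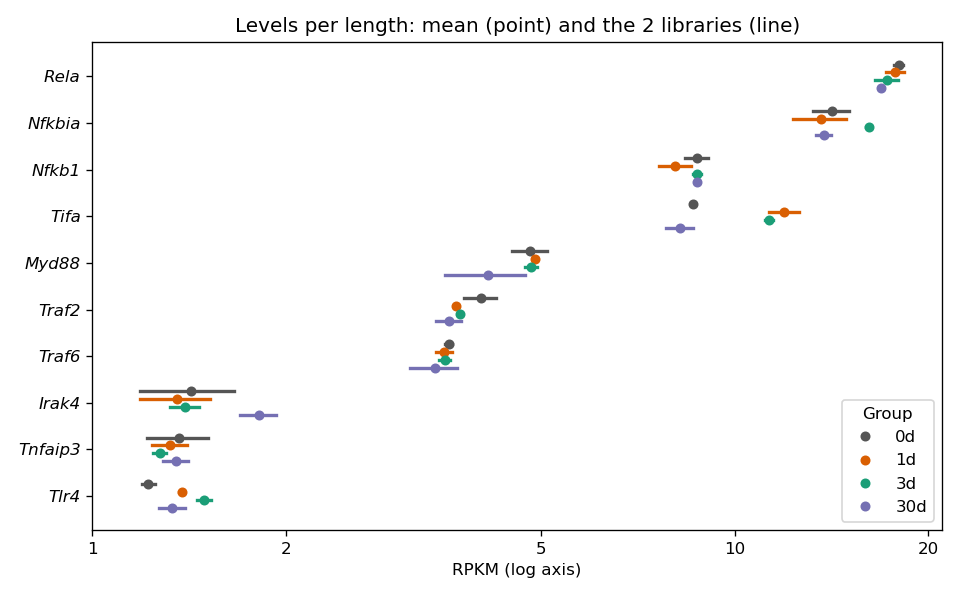
RPKM (log axis) of the 10 genes, in their order at 0d, with the mean of each group as a point and the range of its 2 libraries as a line. Tifa at 1d and 3d, at 11.9 and 11.3, stands to the right of its 0d and 30d values, and the lowest genes overlap each other.

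The rest of the pathway was described with 8 lists of 94 other genes, of which 90 were tested. Cxcl1, Cxcl2, Sele and Saa3 did not pass the filter on low counts. By edgeR, 0 of the 90 passed at 1d (6 at an unadjusted p under 0.05; 2 by DESeq2, Cxcl10 and Irf1; 0 by limma-voom), 1 was higher at 3d (8 at an unadjusted p under 0.05; 2 by DESeq2, Bcl2l1 and Otud7b; 1 by limma-voom), and 0 passed at 30d (19 at an unadjusted p under 0.05; 1 by DESeq2, Mmp9; 0 by limma-voom). Such unadjusted p were held by 4.47% of all tested genes for 1d, 5.94% for 3d and 12.3% for 30d. The shares of all genes called by edgeR were the 0.346%, 0.219% and 0.0231% given above, DESeq2 called 0.674%, 0.758% and 1.24% of those it tested, and limma-voom called 0.306%, 0.237% and 0.0462%. The median log2 difference over the 90 genes was 0.02 at 1d, 0.01 at 3d and 0.01 at 30d, and that over all 17328 tested genes was -0.0032 at 1d. The genes that passed in some pairwise comparison were Otud7b, Bcl2l1 and Irf1.

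Otud7b encodes a deubiquitinase, Cezanne, that counters NF-kB activation. It measured 79.8 and 75.6 CPM in the 0d libraries, 81.1 and 79.1 in those of 1d, 99.1 and 101.5 in those of 3d, and 83.9 and 82.6 in those of 30d, so the 3d libraries stood above the rest. Otud7b was higher at 3d than at 0d by log2 0.37 ± 0.05 SE (adjusted p = 0.00665) and than at 1d by 0.32 (adjusted p = 0.0112), and lower at 30d than at 3d by log2 -0.27 (adjusted p = 0.022). The first of these calls held in all 15 alternative settings and the others in 14 of them. Leaving out 3d replicate 1 or 3d replicate 2 removed all of them, and calls over all genes in these comparisons fell as well. With 1 library left out, the log2 value of Otud7b was 0.33 to 0.41 for 3d against 0d. It was 0.31 to 0.34 for 3d against 1d and -0.29 to -0.25 for 30d against 3d. The call between 1d and 3d was lost with any 1 of its 4 libraries left out, and that between 3d and 30d also without 30d replicate 2.

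Bcl2l1, which encodes the survival protein BCL-XL, had 63.3 and 65.2 CPM in the 0d libraries, 69.4 and 74.6 in those of 1d, 80.9 and 76.2 in those of 3d, and 65.7 and 61.0 in those of 30d. It was lower at 30d than at 3d by log2 -0.31 ± 0.06 SE (adjusted p = 0.0245), and its difference of 0.29 between 3d and 0d had an adjusted p of 0.0876. The Bcl2l1 call held in 13 of 15 alternative settings and was lost without 3d replicate 1, 3d replicate 2 or 30d replicate 2.

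Irf1, a transcription factor that interferon and NF-kB both induce, had 17.8 and 17.7 CPM in the 0d libraries, 26.4 and 23.7 in those of 1d, 16.9 and 15.6 in those of 3d, and 18.0 and 15.3 in those of 30d. Its 1d libraries stood above all others. Irf1 was lower at 3d than at 1d by log2 -0.62 ± 0.10 SE (adjusted p = 0.0151) and lower at 30d than at 1d by log2 -0.59 (adjusted p = 0.0147), while its difference of 0.50 between 1d and 0d missed the threshold (adjusted p = 0.0653) and passed it in 5 of the 15 alternative settings (adjusted p from 0.00662 to 0.176). The calls of Irf1 held in 14 and 15 of the settings. The first was lost without 1d replicate 1, 3d replicate 1 or 3d replicate 2, and the other without 1d replicate 1 or 30d replicate 2.

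By role, no list other than the inhibitors and the target genes held a call with all 8 libraries. Without 30d replicate 1, Ly96 (a TLR4 co-receptor), Tab3 and Tifab also passed for 30d against 3d, and calls over all genes rose as well. Without 30d replicate 2, neither Otud7b nor Bcl2l1 passed there. Of the Toll-like receptors and co-receptors (14 tested), Tlr13 and Tlr5 had the smallest p against 0d, with log2 0.84 and 0.46 at 30d and adjusted p of 0.324 and 0.337. Among TNF and interleukin-1 receptors (8 tested), Tnfrsf1b stood at log2 0.37 and Ltbr at -0.24 at 30d (adjusted p of 0.275 and 0.328). Among the adaptors and receptor-proximal kinases (12 tested), Tifab, a relative of Tifa, was at log2 0.36 at 1d, 0.01 at 3d and 0.60 at 30d, with an adjusted p of 0.19 at 30d, and Sarm1 was at -0.15 at 30d. Tifab and Tifa were not tested against each other.

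In the TRAF family (5 tested) the smallest p belonged to Traf3 and Traf4, at log2 -0.08 at 1d for Traf3 (adjusted p = 1) and -0.13 at 30d for Traf4 (adjusted p = 0.742). Of the TAK1 and IKK complexes (12 tested), which act below TRAF6, Tab1 and Tab3 were at log2 0.25 and 0.16 at 30d (adjusted p of 0.262 and 0.32). The remaining NF-kB subunits (3 tested) included Relb and Nfkb2 of the non-canonical branch. Relb measured 11.1 and 10.0 CPM at 0d and 7.16 and 7.83 at 30d, with log2 -0.25 at 1d, -0.39 at 3d and -0.50 at 30d (adjusted p = 0.156 for the last of these). Nfkb2 was at log2 -0.39 at 30d (adjusted p = 0.365). Of the 21 tested target genes, 15 had a fitted difference above 0 at 1d and 14 at 3d, with medians of 0.16 and 0.28 and 0 calls by edgeR at either time. The list holds Lcn2 and Mmp9, which neutrophils also express. The 7 neutrophil markers all had fitted values above 0 at both times, with medians of 0.65 and 1.11 and 0 calls. At 30d they were again all above 0, with a median of 1.19, while 11 of the 21 target genes were, with a median of 0.0087. The list also holds Irf1, which interferon induces too, and Cxcl10, both called by DESeq2 at 1d. The part of neutrophils and of interferon in the values of this list was not tested. At 1d and 3d, 6 and 4 of the 21 had an unadjusted p under 0.05, against 4.47% and 5.94% of all tested genes. That comparison was not tested.

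**Figure D4:**
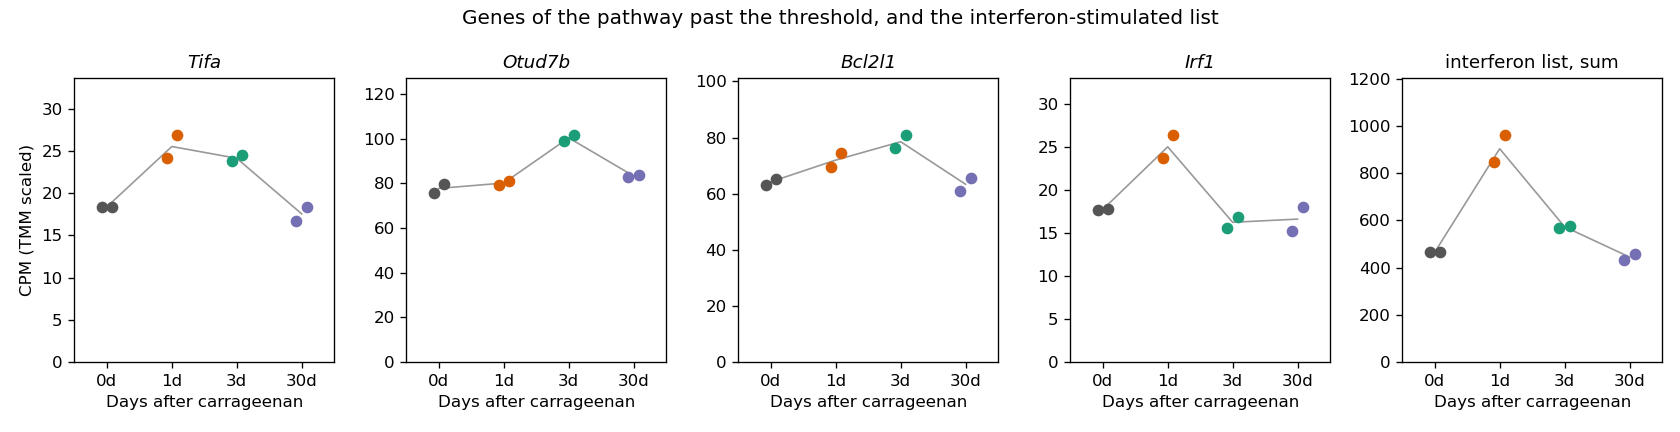
CPM (TMM scaled, axes from 0) of Tifa, Otud7b, Bcl2l1 and Irf1 in each library, and the summed CPM of 20 interferon-stimulated genes, with 1 point per library and a grey line through group means. Tifa is high at 1d and 3d, Otud7b at 3d, and Irf1 and the interferon-stimulated sum at 1d.

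Interferon-stimulated genes moved in the same ganglia and are given here because their timing touches that of Tifa. Their list was chosen with earlier results of these data known. Of 20 such genes, 18 were higher at 1d (0.346% of all tested genes passed there), with a median log2 difference of 1.00. At 3d, 3 were higher (0.219% of all genes), and 20 were lower at 30d than at 1d (0.571%). Isg15, a ubiquitin-like protein, was higher at 1d by log2 2.04 (adjusted p = 3.39e-06), and Oasl2, an antiviral protein, by 1.03 at 1d and 0.66 at 3d (adjusted p of 3.39e-06 and 0.00218). Ifit1, Ifit3 and Ifit3b were higher by log2 1.68, 1.74 and 1.81, but Ifit3 and Ifit3b share 44.5% or more of their sequence words with each other and cannot be fully separated. Ddx58, the RNA sensor RIG-I, was higher by 0.73. The summed CPM of the list was 464 and 467 in the 0d libraries, 846 and 961 in those of 1d, 569 and 576 in those of 3d, and 430 and 459 in those of 30d. Between 1d and 3d, 16 of the 20 were lower (0.289% of all genes passed), while Tifa differed by log2 -0.08. The part of this list in the Tifa values was not tested.

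**Figure D5:**
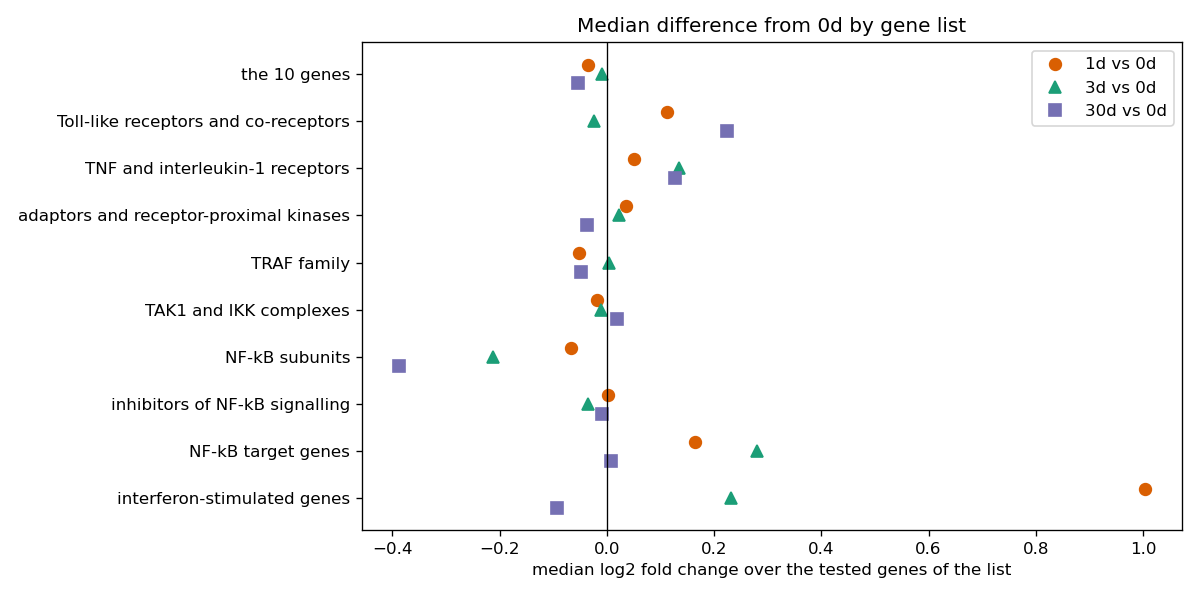
Median log2 fold change against 0d (horizontal axis) of the tested genes of each list at 1d (circles), 3d (triangles) and 30d (squares). The 10 genes and most pathway lists lie near 0, the interferon-stimulated list is at 1.00 at 1d, and the NF-kB subunit list, of 3 genes, is at -0.39 at 30d.

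Library totals ran from 44123208 to 73580338 counts, and replicates differed by more than counting error in every group. Markers of sensory neurons were abundant (summed CPM of 10 genes 17300 to 17636 at 0d). So were those of Schwann cell myelin (7841 to 10738 at 0d) and satellite glia (3400 to 3464), so the libraries held the RNA of whole ganglia. Both glial sums lay below their 0d range at 1d (7615 to 7665 and 3197 to 3308) and at 30d (5400 to 7636 and 2851 to 2984). At 3d the myelin sum was within it (8891 to 8956) and the satellite sum below it (3337 to 3348). The neuron sum was below its 0d range at 30d (16491 to 16920). Their part in the Tifa values was not tested. In such bulk samples fewer cells of a type and less RNA per cell cannot be told apart, and the cell type that carried the Tifa RNA was not resolved. Several markers passed the test in a comparison with 0d: Calca was higher at 3d (log2 0.32), Cx3cr1, a macrophage marker, lower at 3d (-1.02), Apoe lower at 30d (-0.28), Lum lower at 1d (-0.49), and Myh1, of skeletal muscle, lower at 1d and 3d (-1.47 and -1.61). Cx3cr1 did not stand for its list, in which 5 of 10 macrophage markers had fitted values above 0 at 3d (median 0.08). All 7 muscle markers had fitted values below 0 at each later time, with a median of -1.32 at 1d. Their summed CPM was 68.8 and 133 in the 0d libraries, 27.6 and 59.7 in those of 1d, 62.1 and 63.6 in those of 3d, and 19.8 and 107 in those of 30d, and the part of this tissue in the values of the 10 genes was not tested.

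Immune cell markers were set beside Tifa because TIFA, TLR4 and MYD88 are known from myeloid cells. The 10 macrophage markers summed to 130 and 140 CPM in the 0d libraries, 133 and 135 in those of 1d, 145 and 146 in those of 3d, and 142 and 176 in those of 30d. The 7 neutrophil markers in the table summed to 40.8 and 88.2 in the 0d libraries, 99.98 and 106 in those of 1d, 133 and 135 in those of 3d, and 88.9 and 205 in those of 30d. None of the neutrophil markers passed the test. Those with the smallest p against 0d were Cxcr2 and Camp, at log2 1.57 and 1.19 at 30d (adjusted p of 0.263 and 0.401). Both sums were above their 0d range at 3d and at 30d, and that of the neutrophil markers also at 1d. At 30d the lower library of each sum was close to the higher 0d one (142 against 140, and 88.9 against 88.2). Of the 10 macrophage markers, 5 had fitted values above 0 at 3d (median log2 0.08) and 8 at 30d (median 0.27). Markers of T and B cells summed to 3.53 to 6.33 CPM over all libraries. Red blood cell markers summed to 141 and 282 CPM at 0d and 276 and 515 at 30d, with Alas2 at log2 1.20 and Hbb-bs at 0.98 (adjusted p of 0.448 and 0.518), and endothelial markers to 92.1 and 92.3 at 0d and 83.0 and 94.5 at 30d, with Cdh5 at -0.20 at 1d and Cldn5 at -0.19 at 3d. The Schwann cell genes Mag and Pmp22 were at log2 -0.36 and -0.50 at 30d (adjusted p of 0.296 and 0.413). The part of these cells in the values of the 10 genes was not tested.

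The genes whose pattern over the 8 libraries was nearest to that of Tifa were named by the root mean square difference of z-scored log2 CPM, among 17327 genes. They were Mthfd1l (0.173), Timeless (0.245), Snx19 (0.253), Grin3a (0.277) and Vash1 (0.283). The z-score removes the size of a change, and of these genes only Timeless passed the test at 1d (log2 0.43, adjusted p = 0.037), while Snx19 differed by log2 0.04 at 1d. In this order Tlr4 was the nearest of the other members, at rank 1000, followed by Myd88 at 2127, Nfkbia at 4453 and Traf6 at 6066, and Nfkb1 was the farthest, at 15042.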

How the data were processed

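RNA from mouse dorsal root ganglia was sequenced in 8 libraries, 2 per time point. The authors deposited unnormalized read counts per gene, made with cutadapt 2.10 for trimming, STAR 2.7.5a for alignment to mm10 and featureCounts 2.0.1 (versions per the submitters' processing notes). Per the file header, read pairs were counted on exons without strand and could be given to several overlapping genes, so reads of antisense or overlapping genes cannot be separated. Of the 10 genes, Nfkbia overlapped another gene over 0.95% of its exon length, and Nfkb1 and Traf2 shared 0.878% and 0.787% of their 50-base words with one.

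With R 4.3.3 and edgeR 4.0.16, genes were filtered by filterByExpr and scaled by TMM (factors 0.993 to 1.01), and the 4 groups were fitted in 1 quasi-likelihood model, with Benjamini-Hochberg adjustment over 17328 genes and a threshold of 0.05. Robust estimation and the older dispersion method were used because an earlier analysis of these data had inferred those settings from the study's own results. Intervals are at 95%. CPM and RPKM were computed from the deposited counts, with a prior count of 2 for log2 CPM. The fit was tested on simulated counts, where some genes given the largest change were missed and unchanged genes made up more of the calls than the threshold of 0.05 allows. The test's pass mark was lowered after its first run and the fit was kept. Alternatives were other normalizations, filters and estimation methods, DESeq2 1.42.0, limma 3.58.1 (voom), the compared groups alone, a replicate block and each library left out. GC and length trends (spline, 5 degrees of freedom; GC known for 96% of genes), each with and without centring, and thinning to the smallest total were added after the data had been seen.

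Members and lists were chosen with earlier results of these data known. Genes named are the 10 members, up to 6 list genes called in any pairwise comparison, otherwise the 2 of a list with the smallest p against 0d, and the 5 nearest to Tifa. Genes named outside this rule, such as Cxcl10, Mmp9 and Csf1, were chosen after their values were seen. Libraries held 44123208 to 73580338 counts, and both counting error and the spread between pools entered the standard errors, which were smallest for Rela and largest for Irak4.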

Additional observations from a re-analysis of the deposited data

Results flagged for a closer look

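Tifa differed between time points by a direct test and not only against 0d. It was lower at 30d than at 3d by log2 -0.46 (adjusted p = 0.026, edgeR's quasi-likelihood test) and lower at 30d than at 1d by log2 -0.54 (adjusted p = 0.0114). Both 30d libraries of Tifa lay below all 4 libraries of 1d and 3d. The first of these calls was lost without 3d replicate 1, 3d replicate 2 or 30d replicate 2. Its log2 value ran from -0.53 to -0.39 with 1 library left out. The other call was lost without 1d replicate 2 (log2 -0.46).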

How the results depend on the processing

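Over 15 settings, 890 of 900 alternative values for the 10 genes kept their side of the threshold, 7 Tifa values lost it, 3 gained it, and 22 values that were not called changed sign. With each of the 8 libraries left out in turn, 468 of 480 values kept their side, 10 Tifa values lost it, 2 gained it, and 42 that were not called changed sign. The count of the 10 genes called at 1d against 0d fell from 1 to 0 without robust estimation, with the newer dispersion method, with limma-voom, with the compared groups alone, and with GC or length trends removed without centring. The trends were first removed without centring, which cost Tifa its 1d call (adjusted p = 0.0828 and 0.0763) and at 30d against 3d left a count of 0 under the GC trend. The centred versions, in which TMM still sets the scale, were made after those values had been seen and kept the call (0.0346 and 0.0278). They are therefore no independent support for it. Among all genes the uncentred GC trend left 44 calls at 1d and the centred one 62, against 60. The count at 3d against 0d rose from 0 to 1 with no filter, with DESeq2 and with the compared groups alone. With 1 library left out, the count of the 10 genes ran from 0 to 1 at 1d and at 3d against 0d, at 30d against 3d, at 30d against 1d and for any time point. With the compared groups alone, calls over all genes went from 38 to 125 at 3d against 0d and from 50 to 266 at 3d against 1d. Of the 90 other pathway genes, that setting gave 3 calls against 1 at the first and 5 against 2 at the second. The count without a filter was 1 at 1d (Irf1), 2 at 3d and 2 at 30d (Csf1 and Mmp9), and with 1 library left out it ran from 0 to 1 at 1d, from 0 to 3 at 3d (3 without 30d replicate 1 or 30d replicate 2, which added Bcl2l1 and Mmp9 to Otud7b) and from 0 to 1 at 30d, each against 0d, and from 0 to 5 at 30d against 3d. Without a filter, calls over all genes against 0d were 95 at 1d, 89 at 3d and 177 at 30d. Over all genes, calls at 30d against 3d also rose without 30d replicate 1. A lone library in a group was assumed to vary like the others.

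Replicate numbers did not pair the libraries: the 6 correlations of same-numbered deviations lay between -0.0144 and 0.0438. With a replicate block the count was 1 at 1d, 0 at 3d and 0 at 30d against 0d, and Tifa had an adjusted p of 0.0325 at 1d. The replicate block called 2 other pathway genes at 1d, Cxcl10 and Irf1, against 0. Over all genes it moved the calls at 30d against 0d from 4 to 69, and that count ran from 0 to 186 over the 15 settings and from 1 to 202 with 1 library left out. The 38 calls at 3d against 0d likewise ran from 12 to 125 and from 1 to 121, so the shares of all genes called vary with the setting. CPM from raw totals moved the 0d level of each of the 10 genes by less than its spread, and TPM in place of RPKM changed the rank of 0 of them.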
